A study of Homo sapiens with 100 samples.

Results

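The wild-type response to pomalidomide was read from 10 of the 100 libraries of the series, 5 cultures given pomalidomide and 5 given the solvent DMSO, each for 24 h. The libraries were chosen by their labels alone, as wild-type clones 1 to 5 under each of the 2 conditions, and were paired by clone number. The cells were TMD8, an established human lymphoma line (diffuse large B cell, activated type). BTK, a kinase below the B cell receptor, sustains its growth. Both groups were wild-type single-cell clones of that line, so that a pair differed, as far as the labels go, in the compound alone. The series also holds 6 clones labelled A428D, which its growth and design texts describe as a change in the endogenous BTK gene and its sample titles attach to SF3B1, and other treatments: zelebrudomide and bexobrutideg, which degrade BTK, the BCL2 inhibitor venetoclax, and combinations with venetoclax. The sources used here give no doses.

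Pomalidomide is a thalidomide analogue that binds cereblon, the substrate receptor of the ubiquitin ligase built on CUL4 and DDB1, and redirects that ligase to the zinc finger transcription factors IKZF1 (Ikaros) and IKZF3 (Aiolos), which are then degraded. In lymphoma of the activated B cell type, IKZF1 and IKZF3 are known to hold the transcription factor IRF4 up and interferon-stimulated genes down, and IRF4 with SPIB sustains a loop with NF-kB signalling. Degradation acts on the proteins, which were not measured here; the libraries report the transcripts.

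Transcript levels are CPM, counts per 1000000 counts of a library, from sequencing of transcript 3' ends and scaled for composition. Counted reads ran from 6437288 to 7961115 per library with pomalidomide and from 6858767 to 9388855 with DMSO. Mitochondrial transcripts took 8.13% to 8.98% of counts with pomalidomide and 7.30% to 9.07% with DMSO. The DMSO library of clone 3 held counts for 28376 genes, against 23213 to 24875 in the other DMSO libraries. B cell markers summed to 2579 to 2811 CPM with pomalidomide and 3010 to 3257 CPM with DMSO, so the B cell label held in every library. Markers of other cell types were low but not equal between the groups: 8 myeloid markers summed to 32.8 to 42.5 CPM with pomalidomide, against 15.8 to 24.5 CPM with DMSO, most of it CD68, with FCGR3A, S100A8 and S100A9 at 0 in all 10 libraries. Sums over 10 T and NK cell markers were 5.75 to 8.72 CPM with pomalidomide, against 2.77 to 6.98 CPM with DMSO. Over 7 fibroblast and endothelial markers they were 16.5 to 37.1 CPM with pomalidomide, against 10.97 to 14.6 CPM with DMSO, with CDH5 at 0 throughout. In bulk samples a smaller share of cells of 1 kind and less RNA per cell cannot be told apart.

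Of 14962 genes tested, 2879 (19.2%) differed between pomalidomide and DMSO at an adjusted p under 0.05 in edgeR's quasi-likelihood test with clone as a block; such genes are called here. They split into 1461 higher (9.76%) and 1418 lower (9.48%) with pomalidomide, and the median log2 fold change over all genes tested was -0.0075. At least 2-fold changes numbered 326 higher and 203 lower, and at least 4-fold changes 83 and 32. The direction was the same in all 5 clones for 2615 of the called genes. For 1906 genes (12.7% of those tested) the 5 pomalidomide and 5 DMSO libraries did not overlap in CPM, and 1677 of these were called. Without the clone term 1495 genes were called, all of them among the 2879. Without clone 3, whose DMSO library stood apart in genes counted, it was 2837. That fit also lost the clone's library with bexobrutideg and venetoclax, which held 1476519 counted reads. Without clone 1, 2, 4 or 5 the count was 2357, 2299, 2337 or 2283. Of the genes described below, SCIMP, CCND2, JUNB, IL6, EIF2AK2, BLNK, IFNGR2, CDC25C, FDPS and HLA-F also overlap another tested gene, which leaves their counts uncertain without strand. Where 5 values are given, they are clones 1 to 5 in that order. Fold changes below are log2, pomalidomide over DMSO, with their standard errors (SE), and every adjusted p is from that edgeR test. The replicates are clones of 1 line treated once each. The p-values rest on the spread left after group and clone terms over all 88 libraries of 24 h, of both genotypes and all treatments. They do not cover other lines or repeated treatments.

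**Figure D1:**
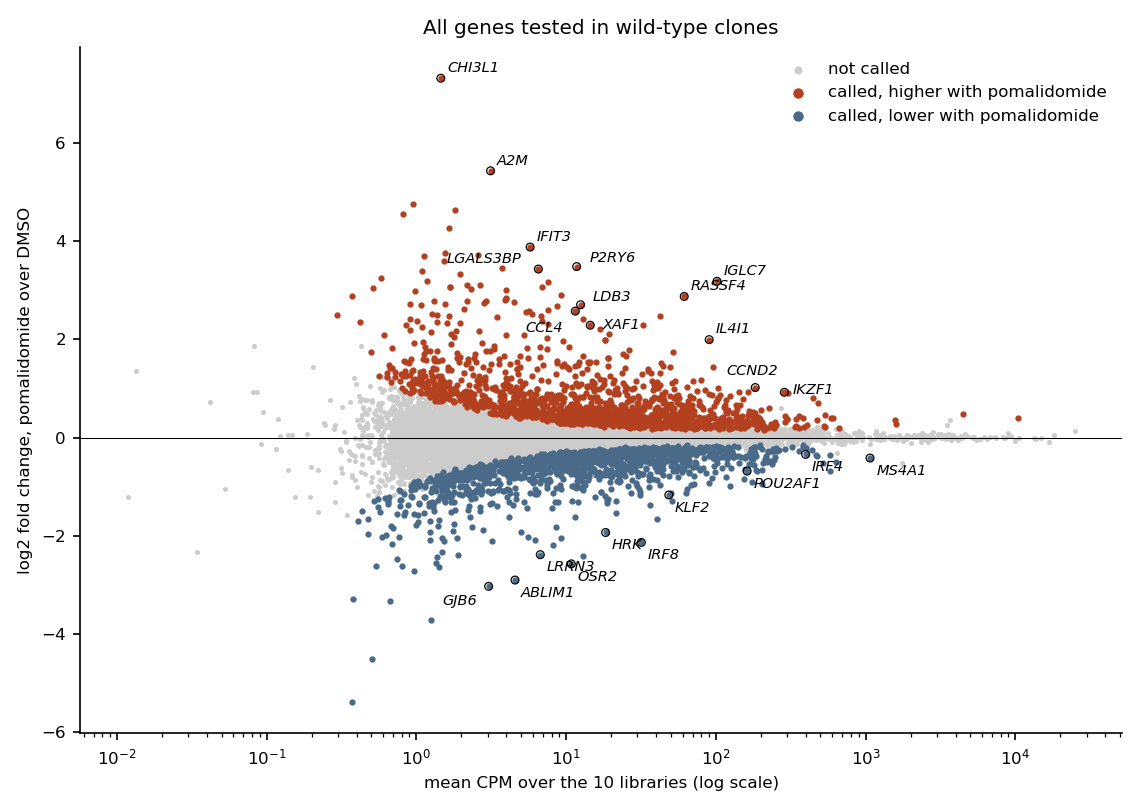
Each point is 1 of the 14962 genes tested, placed by its mean CPM over the 10 libraries (log axis) and by its log2 fold change, pomalidomide over DMSO, in wild-type clones; coloured points were called. The 1461 higher genes reach further from 0 than the 1418 lower ones, with CHI3L1, A2M and IFIT3 at the top and GJB6, ABLIM1, OSR2 and IRF8 among the labelled points at the bottom.

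Of the transcripts of the degraded factors, IKZF1 rose with pomalidomide and IKZF3 was not called. IKZF1 (ENSG00000185811, chromosome 7, 50304068 to 50405101 on GRCh38) stood at 409, 379, 331, 376 and 385 CPM with pomalidomide, against 198, 196, 205, 187 and 206 CPM with DMSO. The 2 groups did not overlap, and the log2 fold change was 0.92 ± 0.06, adjusted p = 5.0e-24. IKZF3 (ENSG00000161405, chromosome 17, 39757715 to 39864188) stood at 166, 169, 157, 157 and 144 CPM with pomalidomide, against 186, 168, 180.2, 172 and 169.8 CPM with DMSO. The ranges overlapped, and the change of -0.15 ± 0.06 was not called (adjusted p = 0.0825). IKZF3 was called lower when only the groups compared were fitted (adjusted p = 0.0326). The other family members, IKZF2, IKZF4 and IKZF5, had log2 fold changes between -0.09 and -0.02 and were not called. Thus 1 of 5 Ikaros family genes was called, beside 19.2% of all genes.

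Genes of the ligase and of its other known targets were set beside the share of all genes called, 19.2%. CRBN, which encodes cereblon (ENSG00000113851, chromosome 3, 3144628 to 3179727), had 14.9, 13.4, 11.3, 15.3 and 11.6 CPM with pomalidomide, against 15.5, 13.1, 12.4, 12.2 and 14.01 CPM with DMSO. The difference of -0.01 ± 0.11 was not called (adjusted p = 0.964). The gene overlaps TRNT1, and the strand used in counting was not stated. Of 10 genes of the ligase and its cofactors and substrates, 2 were lower and none higher (20% called). They were GLUL, glutamine synthetase, a substrate of unmodified cereblon, at -0.49 ± 0.08, adjusted p = 4.05e-07, and DDA1, a subunit of the DDB1 assembly that overlaps ANO8 and ABHD8, at -0.29 ± 0.09, adjusted p = 0.0171. The DDA1 call was lost without the clone term, without clone 2 and without clone 4 (adjusted p = 0.101, 0.209 and 0.0554). Among 17 tested genes of further neosubstrates (19 listed), ZNF692, a zinc finger protein, was alone in being called (5.88%). It had 23.4, 20.3, 21.6, 22.1 and 23.7 CPM with pomalidomide, against 17.6, 14.7, 15.6, 16.6 and 15.9 CPM with DMSO. The groups did not overlap, and the change was 0.46 ± 0.11, adjusted p = 0.000481. GSPT1 (0.13), ZFP91 (0.07) and CSNK1A1 (0.04) were not called. BTK itself (ENSG00000010671, chromosome X, 101349447 to 101390796) had 68.5, 69.1, 75.1, 68.9 and 71.9 CPM with pomalidomide, against 68.3, 64.7, 65.9, 73.6 and 70.03 CPM with DMSO. Its difference of 0.05 ± 0.07 did not pass the test (adjusted p = 0.739).

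**Figure D2:**
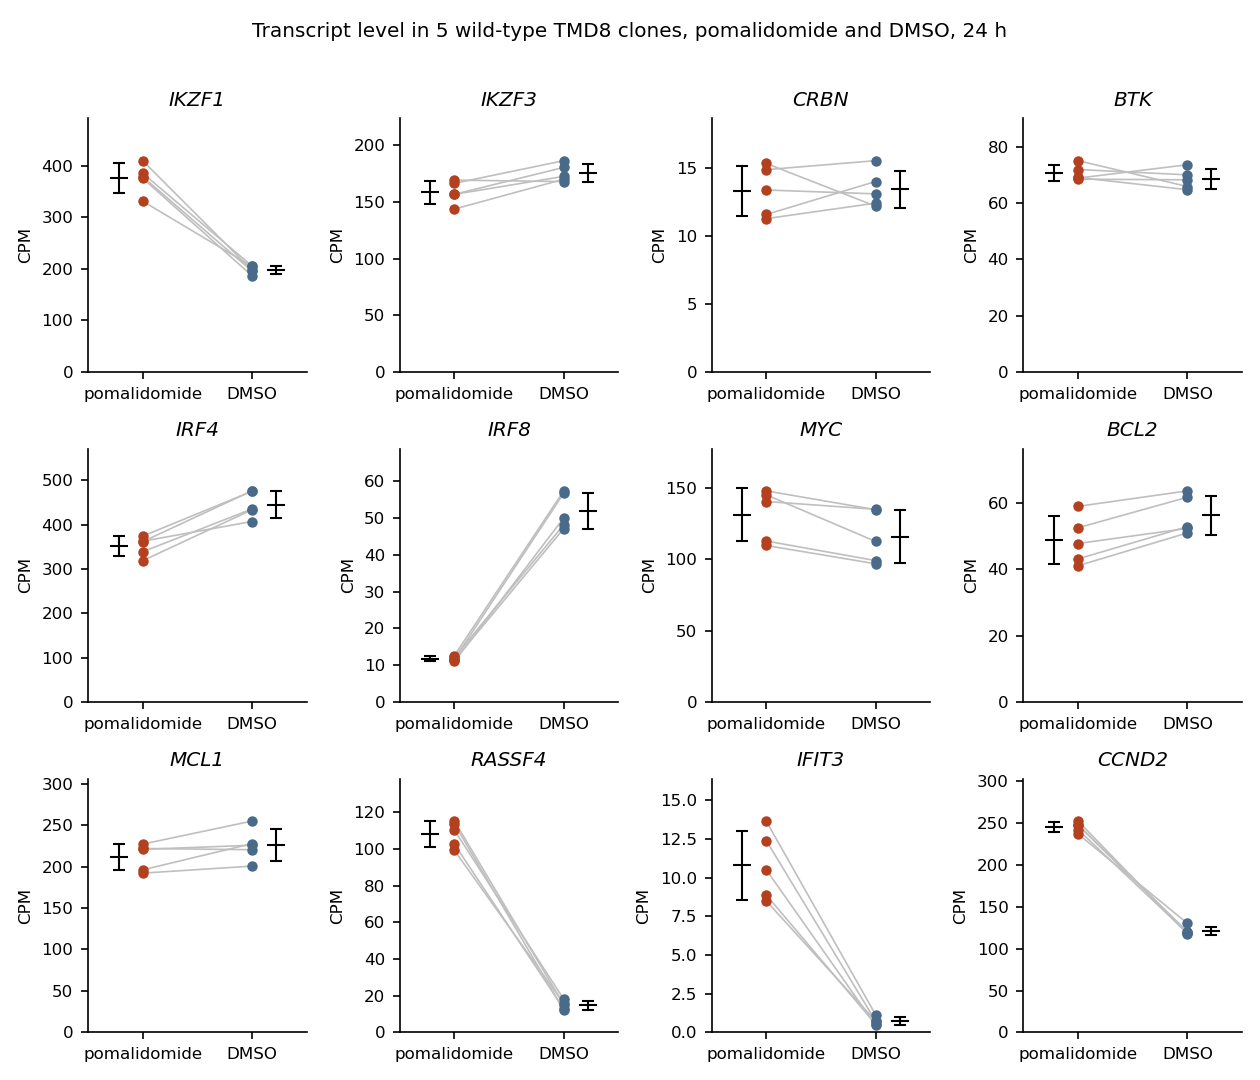
Each panel plots CPM of 1 gene in the 5 pomalidomide libraries (left) and the 5 DMSO libraries (right); grey lines join the libraries of a clone, and bars beside the points give the mean and SD (n = 5 each). IKZF1, RASSF4, IFIT3 and CCND2 were higher with pomalidomide in every clone and IRF8 was lower in every clone, whereas IKZF3, CRBN, BTK, MYC, BCL2 and MCL1 were not called.

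Around IRF4 the factors moved in both directions, and IRF8 moved most. IRF4 (ENSG00000137265, chromosome 6, 391739 to 411447), the plasma cell and activated B cell regulator, had 319, 362, 374, 339 and 363 CPM with pomalidomide, against 434, 476, 475, 435 and 407 CPM with DMSO. It was lower in all 5 clones, with a log2 fold change of -0.34 ± 0.09, adjusted p = 0.00346, and this call was lost without the clone term (adjusted p = 0.15). Its closest relative IRF8 (ENSG00000140968, chromosome 16, 85898803 to 85922609), a factor of germinal centre B cells and myeloid cells, had 12.7, 11.5, 12.2, 11.7 and 11.04 CPM with pomalidomide, against 57.3, 47.1, 48.1, 56.7 and 49.98 CPM with DMSO. The highest pomalidomide library lay far below the lowest DMSO library, and the change was -2.13 ± 0.11, adjusted p = 3.19e-28.

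Of 13 genes on the list of IRF4, SPIB and their partners, 4 were higher and 6 lower (76.9% called, beside 19.2% of all genes), with a median of -0.13. SPIB, the ETS-family partner of IRF4, ranged over 422 to 472 CPM with pomalidomide, against 672 to 753 CPM with DMSO (-0.68 ± 0.13, adjusted p = 2.42e-05). ETS1, a related ETS factor, had 47.1, 51.6, 48.2, 52.5 and 50.4 CPM with pomalidomide, against 82.9, 71.4, 83.3, 89.9 and 82.3 CPM with DMSO, again without overlap (-0.71 ± 0.07, adjusted p = 5.16e-14). IRF2, a repressor of interferon targets, was lower by a smaller margin (-0.46 ± 0.06, adjusted p = 1.09e-09), as was PRDM1 (Blimp-1), the driver of plasma cell differentiation (-0.40 ± 0.09, adjusted p = 0.000303; adjusted p = 0.0921 without the clone term; the gene overlaps ATG5). On the other side stood the AP-1 partners of IRF4. BATF3 had 13.03, 19.7, 19.5, 17.4 and 19.4 CPM with pomalidomide, against 5.60, 6.55, 7.57, 6.31 and 5.31 CPM with DMSO (1.48 ± 0.15, adjusted p = 6.91e-14), and BATF ranged over 146 to 203 CPM with pomalidomide, against 93.8 to 131 CPM with DMSO (0.65 ± 0.09, adjusted p = 1.81e-08). IRF7, the amplifier of interferon induction, was higher by 0.54 ± 0.10, adjusted p = 2.47e-05 and SPI1, which encodes PU.1, by 0.37 ± 0.11, adjusted p = 0.0121. MYC, a downstream growth gene, had 113, 148, 140.4, 109.6 and 145 CPM with pomalidomide, against 99.1, 135, 135, 96.8 and 112 CPM with DMSO (ENSG00000136997, chromosome 8, 127735434 to 127741434); its difference of 0.19 ± 0.13 was not called (adjusted p = 0.342), though it was when only the groups compared were fitted (adjusted p = 0.00531).

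Most of the listed interferon-stimulated genes (ISGs), the antiviral and signalling genes that type I interferon induces, were higher with pomalidomide. Of 43 ISGs tested (46 listed), 30 were higher (69.8%, beside 9.76% of all genes) and 3 lower, and the median was 0.67 beside -0.0075 for all genes. The 2 groups did not overlap in 30 of the 43, beside 12.7% of all genes. IFIT3, which binds foreign RNA in complex with IFIT1, had 13.6, 8.49, 10.5, 8.88 and 12.4 CPM with pomalidomide, against 1.15, 0.741, 0.473, 0.535 and 0.737 CPM with DMSO. Its change of 3.88 ± 0.27, adjusted p = 2.24e-21 was the largest of the list. LGALS3BP, a secreted galectin-binding glycoprotein, had 13.4, 9.13, 10.2, 12.6 and 14.4 CPM with pomalidomide, against 0.892, 0.494, 1.42, 0.963 and 1.77 CPM with DMSO (3.43 ± 0.23, adjusted p = 1.25e-22). XAF1, a pro-apoptotic antagonist of XIAP, had 25.8, 21.1, 24.7, 23.7 and 25.3 CPM with pomalidomide, against 3.06, 5.93, 4.85, 5.88 and 4.72 CPM with DMSO (2.29 ± 0.15, adjusted p = 2.37e-23). For each of these 3 genes the lowest pomalidomide library lay well above the highest DMSO library.

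The response was graded within the group. IFIT1 ranged over 5.11 to 9.02 CPM with pomalidomide, against 0.618 to 1.54 CPM with DMSO (3.00 ± 0.27, adjusted p = 1.65e-15), IFI27 over 11.3 to 23.97 CPM with pomalidomide, against 1.42 to 2.996 CPM with DMSO (2.90 ± 0.23, adjusted p = 1.68e-17) and OAS3, a 2'-5' oligoadenylate synthetase, over 13.4 to 20.4 CPM with pomalidomide, against 3.07 to 7.28 CPM with DMSO (1.83 ± 0.19, adjusted p = 3.94e-13). The ADP-ribosylation group was higher by less: PARP14 had 55.3, 46.3, 48.3, 53.5 and 54.7 CPM with pomalidomide, against 23.2, 22.5, 23.9, 21.9 and 24.5 CPM with DMSO (1.16 ± 0.08, adjusted p = 2.07e-20), with its neighbours PARP9 at 0.85 ± 0.08 and DTX3L at 0.76 ± 0.07. The interferon signalling factor STAT2 was higher (0.42 ± 0.10), and its partner IRF9 was not called (-0.01 ± 0.10; adjusted p = 0.971). The 3 lower members fell without overlap between groups. OAS1 ranged over 50.7 to 67.9 CPM with pomalidomide, against 75.99 to 114 CPM with DMSO (-0.60 ± 0.09, adjusted p = 8.06e-08), TRIM22, a restriction factor, over 43.4 to 53.1 CPM with pomalidomide, against 65.2 to 80.9 CPM with DMSO (-0.65 ± 0.08, adjusted p = 1.74e-10), and SP100, a nuclear body protein, over 12.9 to 18.8 CPM with pomalidomide, against 21.5 to 30.1 CPM with DMSO (-0.71 ± 0.11, adjusted p = 1.16e-07). IFIT3 overlaps LIPA in the annotation, which the unstated strand leaves uncertain.

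**Figure D3:**
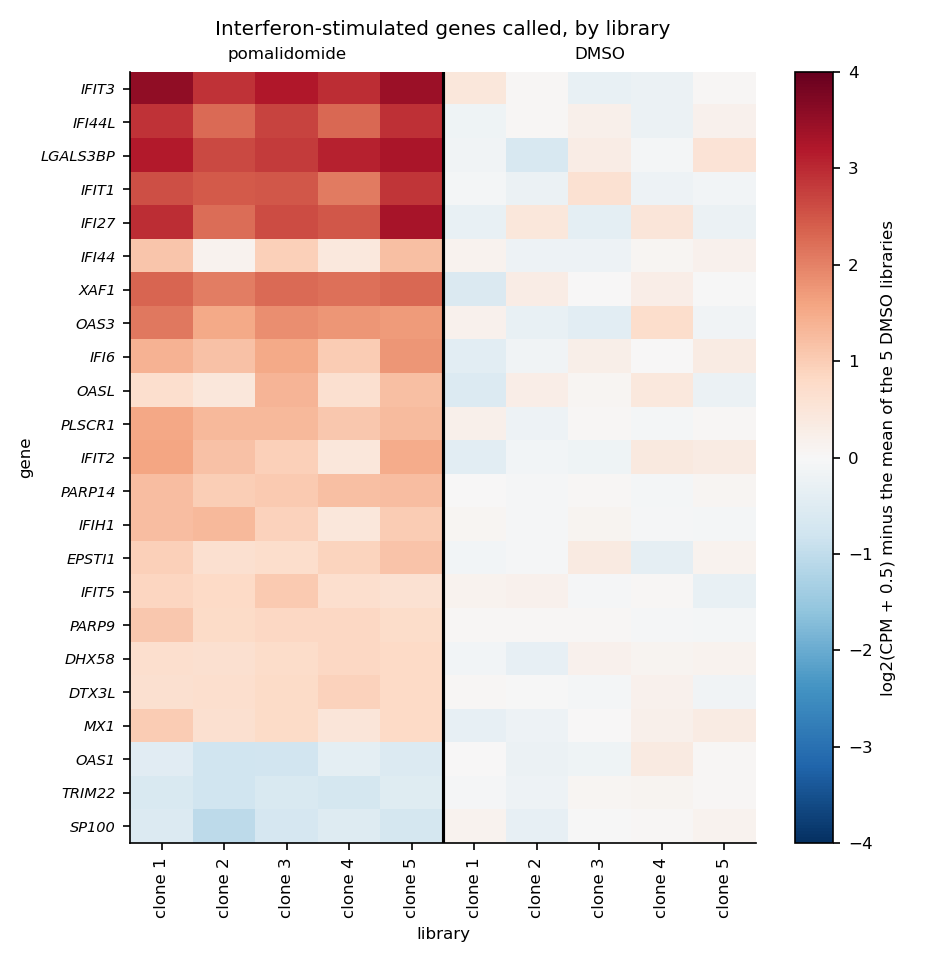
Rows are the 20 called ISGs with the largest rises and the 3 that were lower, ordered by fold change, and columns the 10 libraries, pomalidomide clones 1 to 5 left of the line and DMSO clones 1 to 5 right of it; colour gives log2(CPM + 0.5) minus the mean of the 5 DMSO libraries. The 20 upper rows are higher in nearly every pomalidomide library, most in IFIT3, IFI44L, LGALS3BP, IFIT1 and IFI27, and the bottom 3 rows, OAS1, TRIM22 and SP100, are lower.

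Promoter windows of these genes were searched for the letters of the interferon-stimulated response element (ISRE), GAAANNGAAA or its reverse complement TTTCNNTTTC on either strand, to which STAT2 with IRF9, and other IRF proteins, are known to bind. In RefSeq windows from 250 bases before to 50 bases after the start (GRCh38.p14), the letters occurred in 996 of 27305 promoters (3.65%) and in 313 of 9993 promoters of tested genes (3.13%). They occurred in 21 of 34 tested ISGs with a window (61.8%), in 18 of the 23 that were higher (78.3%) and in none of the 2 lower ones with a window, OAS1 and SP100. Among all genes called higher, 62 of 1051 windows held them (5.90%), against 31 of 1023 windows of genes called lower (3.03%). Among genes at least 2-fold higher it was 22 of 219 (10.0%), and among genes at least 2-fold lower 7 of 126 (5.56%). These counts hold the listed ISGs: the 18 higher ISGs with the letters are among the 62. Among the 22 are LGALS3BP, IFIT3, PARP14, IFI27, IFIT1, PLSCR1, IFI44L, OAS3, IFI6, IFIH1 and IFI44. The share among genes outside the ISG list was not counted. The composite letters of ETS factors with IRF4 or IRF8, GGAANNGAAA or TTTCNNTTCC, which can overlap the ISRE letters, were present in 2.84% of all promoters and in 9 of the 34 ISG windows (26.5%). A match describes letters and is not evidence of binding. The 4 ISGs of smallest p whose windows hold the ISRE letters are shown as the 250 bases before the start, with the ISRE letters in capitals, at chr17:78979924-78980173, minus strand (LGALS3BP), chr10:89327747-89327996, plus strand (IFIT3), chr3:122680589-122680838, plus strand (PARP14) and chr14:94110486-94110735, plus strand (IFI27):
LGALS3BP: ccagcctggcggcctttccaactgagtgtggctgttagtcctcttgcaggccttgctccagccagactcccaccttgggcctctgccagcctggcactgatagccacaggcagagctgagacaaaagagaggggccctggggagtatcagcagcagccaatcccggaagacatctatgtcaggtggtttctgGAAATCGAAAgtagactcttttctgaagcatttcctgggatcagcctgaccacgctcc
IFIT3: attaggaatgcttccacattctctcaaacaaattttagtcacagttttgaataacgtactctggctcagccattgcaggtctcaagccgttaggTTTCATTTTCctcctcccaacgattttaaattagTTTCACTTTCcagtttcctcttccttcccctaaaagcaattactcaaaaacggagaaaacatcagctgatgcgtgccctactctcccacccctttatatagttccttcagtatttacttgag
PARP14: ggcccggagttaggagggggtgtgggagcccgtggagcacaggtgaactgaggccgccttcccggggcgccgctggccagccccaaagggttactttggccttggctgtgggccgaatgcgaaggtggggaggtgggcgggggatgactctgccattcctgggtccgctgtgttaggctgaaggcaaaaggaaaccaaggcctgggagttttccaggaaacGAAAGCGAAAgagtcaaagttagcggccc
IFI27: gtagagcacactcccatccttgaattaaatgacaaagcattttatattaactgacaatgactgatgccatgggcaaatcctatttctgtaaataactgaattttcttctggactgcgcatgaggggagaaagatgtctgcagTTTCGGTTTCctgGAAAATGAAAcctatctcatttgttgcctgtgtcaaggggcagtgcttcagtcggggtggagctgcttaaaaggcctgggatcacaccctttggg
The ISRE letters begin 58 bases before the start in LGALS3BP, 156 and 122 in IFIT3, 29 in PARP14, and 108 and 95 in IFI27, where they lie close together on opposite strands.

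The receptors of interferon were lower where they were called, and no interferon gene was among the 13 of 18 genes of the list that could be tested. Of these 13, 3 were higher and 4 lower (53.8% called, beside 19.2% of all genes; median 0.05). IFNAR2, a chain of the type I receptor, had 21.6, 16.3, 21.3, 20.7 and 21.01 CPM with pomalidomide, against 39.2, 24.96, 26.5, 33.2 and 30.1 CPM with DMSO (-0.60 ± 0.08, adjusted p = 7.38e-09); it overlaps IL10RB-DT and a read-through transcript. The type II receptor chains IFNGR1 (-0.64 ± 0.11, adjusted p = 1.33e-06) and IFNGR2 (-0.42 ± 0.07, adjusted p = 5.20e-07) and the kinase JAK1 (-0.47 ± 0.09, adjusted p = 5.05e-05) were lower as well. SOCS3, a feedback inhibitor of JAK signalling, was higher in every clone, at 191, 194, 189, 179.7 and 209 CPM with pomalidomide, against 109.8, 112, 121, 111 and 107 CPM with DMSO (0.78 ± 0.07, adjusted p = 1.89e-16). The DNA sensor CGAS (0.45 ± 0.12, adjusted p = 0.00198) and the transcription factor IRF1 (0.36 ± 0.13, adjusted p = 0.0315) were also higher. Of 14 class I presentation genes 3 were called, all higher (21.4%, near the 19.2% of all genes called), among them HLA-F (1.03 ± 0.12, adjusted p = 5.03e-11) and HLA-E (0.35 ± 0.07, adjusted p = 4.19e-05); the groups overlapped in both, these paralogues share sequence, and without the clone term 1 was called, with only the groups compared 5.

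Of the targets of NF-kB downstream of the B cell receptor, some were higher and others were not called. Of 30 NF-kB targets, 14 were higher (46.7%, beside 9.76% of all genes), 3 lower and 13 not called, with a median of 0.19; of 20 cytokine and chemokine genes tested (26 listed), 11 were higher (55.0%), 2 lower and 7 not called, with a median of 0.59. CCL3, CCL4, CCL22, EBI3, IL6, IL10, LTA and TNF are on both lists. CCL4, a chemokine secreted on B cell receptor stimulation (ENSG00000275302, chromosome 17, 36103590 to 36105621), had 29.3, 19.6, 16.8, 13.2 and 19.7 CPM with pomalidomide, against 5.35, 4.20, 2.48, 1.82 and 2.95 CPM with DMSO (2.57 ± 0.16, adjusted p = 1.09e-23). Its near-identical copy CCL4L2 behaved alike in the counts (2.21 ± 0.17), and reads could be split between them. CCND2, cyclin D2, had 248, 248, 237, 242 and 252 CPM with pomalidomide, against 120.2, 119.6, 130.3, 119 and 118 CPM with DMSO (1.02 ± 0.09, adjusted p = 1.42e-16). TNF had 75.1, 84.9, 64.6, 64.4 and 75.1 CPM with pomalidomide, against 31.7, 39.5, 38.6, 19.2 and 38.2 CPM with DMSO (1.15 ± 0.13, adjusted p = 6.76e-11), and the groups did not overlap in any of the 3 genes.

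Immunoregulatory cytokines followed. IL10 had 22.3, 29.3, 20.5, 13.5 and 22.1 CPM with pomalidomide, against 9.04, 10.1, 6.39, 5.14 and 6.49 CPM with DMSO (1.54 ± 0.17, adjusted p = 5.90e-12), without overlap. IL6 ranged over 2.15 to 7.81 CPM with pomalidomide, against 0.749 to 2.84 CPM with DMSO (1.60 ± 0.22, adjusted p = 1.01e-08), with wide spread between clones and overlapping groups. CXCL10, the interferon-induced ligand of CXCR3, ranged over 2.19 to 5.16 CPM with pomalidomide, against 0.118 to 0.892 CPM with DMSO (2.77 ± 0.33, adjusted p = 8.49e-11). Among the core genes of the pathway, NFKBIA (0.14), TNFAIP3 (0.12), REL (0.16) and RELB (0.00) were not called. The 3 lower targets were CCL22, a chemokine for CCR4 (-1.15 ± 0.26, adjusted p = 0.000386), NFKBIZ, an atypical IkB protein (-0.39 ± 0.08, adjusted p = 0.000147), and BCL2A1, an anti-apoptotic BCL2 relative (-0.66 ± 0.11, adjusted p = 6.31e-07; adjusted p = 0.0513 without the clone term). Among 18 tested genes of the ERK pathway and immediate early response (22 listed), 5 were higher and 1 lower (33.3% called, beside 19.2% of all genes), the highest being SPRED1, an inhibitor of RAS signalling, at 25.2, 26.5, 21.3, 27.04 and 24.9 CPM with pomalidomide, against 15.03, 11.4, 14.8, 17.5 and 14.3 CPM with DMSO (0.77 ± 0.10, adjusted p = 5.45e-10). JUNB (0.56 ± 0.08, adjusted p = 9.63e-09) and JUN (0.58 ± 0.09, adjusted p = 1.88e-07), which pair with BATF proteins in AP-1, were among the 5. Of 21 genes of the receptor and MYD88 signalling chain itself, 2 were higher and 4 lower (28.6% called; 1 and 1 without the clone term, 1 and 2 without clone 1), led by TLR7, an RNA-sensing receptor (0.70 ± 0.09, adjusted p = 2.52e-10), and BLNK, the adaptor that links SYK to BTK (-0.40 ± 0.06, adjusted p = 8.06e-08).

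Regulators of B cell identity were called in both directions. Of 20 B cell transcription factors, 3 were higher and 8 lower, beside 9.76% of all genes higher and 9.48% lower, with a median of -0.15; without the clone term the counts were 3 and 4. KLF2, a factor of lymphocyte quiescence and homing, had 30.5, 28.7, 24.1, 32.96 and 33.7 CPM with pomalidomide, against 64.6, 60.2, 63.3, 82.4 and 65.5 CPM with DMSO (-1.17 ± 0.09, adjusted p = 1.93e-18). POU2AF1, the octamer coactivator OCA-B, had 124, 115, 112, 143 and 126 CPM with pomalidomide, against 170.2, 170.4, 195, 245 and 218 CPM with DMSO (-0.68 ± 0.07, adjusted p = 1.67e-14). PAX5, the B lineage commitment factor, was lower at -0.36 ± 0.07, adjusted p = 2.85e-05, and EBF1 was not called (-0.14 ± 0.08; adjusted p = 0.25). LMO2, a germinal centre marker, had 56.6, 67.03, 60.4, 40.9 and 61.1 CPM with pomalidomide, against 25.3, 31.9, 36.3, 17.4 and 26.1 CPM with DMSO (1.08 ± 0.09, adjusted p = 2.49e-18). RUNX3 (0.79 ± 0.09, adjusted p = 4.92e-12) and ID2, an inhibitor of E proteins (0.74 ± 0.08, adjusted p = 5.87e-12), were the other higher factors.

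At the cell surface 8 of 29 tested receptors (31 listed) were higher and 11 lower (65.5% called, beside 19.2% of all genes). SLAMF1, a costimulatory receptor, was highest at 5.78, 10.4, 8.80, 6.05 and 8.48 CPM with pomalidomide, against 1.02, 1.24, 1.54, 0.963 and 0.885 CPM with DMSO (2.77 ± 0.20, adjusted p = 2.44e-20). FCRL1, an Fc receptor-like B cell protein, had 1.48, 2.32, 1.70, 1.75 and 3.10 CPM with pomalidomide, against 7.51, 7.66, 9.34, 6.31 and 8.70 CPM with DMSO (-1.93 ± 0.20, adjusted p = 4.40e-13). All 3 receptors of BAFF and APRIL were lower: TNFRSF13C (BAFF receptor) at -0.69 ± 0.07, adjusted p = 7.36e-13, TNFRSF13B (TACI) at -1.04 ± 0.12, adjusted p = 1.98e-10 and TNFRSF17 (BCMA) at -0.75 ± 0.08, adjusted p = 6.25e-12, the last with overlapping groups and adjusted p = 0.182 without the clone term. The therapeutic antigens divided. MS4A1 (CD20) ranged over 854 to 1054 CPM with pomalidomide, against 1184 to 1303 CPM with DMSO (-0.42 ± 0.07, adjusted p = 7.26e-07), and CD22 (-0.65 ± 0.12, adjusted p = 2.76e-05) and CD38 (-1.09 ± 0.30, adjusted p = 0.00388) were lower. CD79A (0.10 ± 0.16) and CD79B (-0.04 ± 0.14) were not called. The costimulatory molecules CD40 (0.61 ± 0.08), CD83 (0.56 ± 0.09), CD80 (0.58 ± 0.12) and CD86 (0.35 ± 0.09) were all higher, as was the chemokine receptor CCR7 (0.67 ± 0.09).

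Immune checkpoint genes changed in both directions: of 11 tested (17 listed), 4 were higher and 2 lower (54.5% called, beside 19.2% of all genes). VSIR, which encodes the inhibitory ligand VISTA, had 9.71, 12.2, 13.4, 15.7 and 12.1 CPM with pomalidomide, against 2.04, 2.59, 2.37, 2.996 and 2.65 CPM with DMSO (2.31 ± 0.17, adjusted p = 3.10e-20). LAG3 had 6.39, 6.05, 5.25, 5.92 and 5.66 CPM with pomalidomide, against 0.637, 0.988, 1.30, 1.28 and 1.03 CPM with DMSO (2.45 ± 0.24, adjusted p = 2.64e-14). CD274 (PD-L1) had 22.6, 19.8, 15.1, 23.9 and 21.8 CPM with pomalidomide, against 10.95, 7.91, 10.9, 9.09 and 7.67 CPM with DMSO (1.15 ± 0.13, adjusted p = 8.48e-12). No library of one group reached the other group in these 3 genes. PDCD1 (PD-1) was higher by 1.06 ± 0.16, adjusted p = 8.06e-08, whereas BTLA, an inhibitory B cell receptor (-2.72 ± 0.43, adjusted p = 2.45e-07), and ICOSLG, the ligand of ICOS (-1.11 ± 0.19, adjusted p = 7.02e-06), were lower. Plasma cell and secretory genes were mixed, with 4 of 19 higher and 5 lower (47.4% called; 1 and 1 without the clone term): JCHAIN, the joining chain of polymeric immunoglobulin, had 13.03, 6.82, 12.2, 9.55 and 14.1 CPM with pomalidomide, against 27.5, 19.9, 25.2, 20.2 and 34.2 CPM with DMSO (-1.18 ± 0.11, adjusted p = 1.37e-14; adjusted p = 0.402 without the clone term), and HERPUD1, an endoplasmic reticulum stress protein, had 241, 227, 226, 254 and 239 CPM with pomalidomide, against 162, 157, 145, 186 and 159 CPM with DMSO (0.56 ± 0.07, adjusted p = 4.79e-11).

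The 15 largest rises among called genes with a mean of at least 1 CPM were mostly of genes near silence with DMSO. CHI3L1, a secreted chitinase-like protein, had 2.46, 1.80, 1.70, 4.44 and 4.17 CPM with pomalidomide and no count in any of the 5 DMSO libraries. Against a floor of 3 counts over the DMSO group (0.0759 CPM) it was at least 38.4-fold higher. A2M, a broad protease inhibitor, had 8.61, 5.66, 5.25, 4.44 and 6.73 CPM with pomalidomide, against 0.255, 0, 0.118, 0.107 and 0.147 CPM with DMSO (5.43 ± 0.34, adjusted p = 8.75e-24). P2RY6, a receptor for UDP, had 26.8, 19.6, 20.4, 22.9 and 18.6 CPM with pomalidomide, against 2.29, 1.85, 2.13, 1.93 and 1.33 CPM with DMSO (3.48 ± 0.15, adjusted p = 1.19e-33).

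The other genes of this set were receptors, secreted proteins and ISGs. PTGIR, the prostacyclin receptor, ranged from 5.10 to 9.13 CPM with pomalidomide and from 0.295 to 1.11 CPM with DMSO (3.46 ± 0.28, adjusted p = 7.93e-18). FMOD, a collagen-binding proteoglycan, was at 4.63 ± 0.42, NES, the intermediate filament nestin, at 4.26 ± 0.38, and CEBPD, a C/EBP transcription factor, at 3.75 ± 0.42. SCIMP, an adaptor of antigen-presenting cells, was at 3.69 ± 0.45, CD300A, an inhibitory receptor, at 3.59 ± 0.39 and F13A1, the A subunit of coagulation factor XIII, at 3.33 ± 0.35. The set was completed by IFIT3, LGALS3BP, IFI44L (3.71 ± 0.36), CTDSPL (3.40 ± 0.47) and MARVELD1 (3.19 ± 0.40). Pomalidomide and DMSO libraries did not overlap in any of the 15, beside 12.7% of all genes. Choosing genes by size of change and by 5 of 5 clones alike favours such separation. The myeloid marker CD68 was 36.5 ± 4.16 CPM with pomalidomide and 18.4 ± 3.14 CPM with DMSO (SD, n = 5 each), the myeloid genes S100A8, S100A9 and FCGR3A were at 0, and the part of other cell types in these rises was not tested.

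The 15 largest falls were of genes with diverse roles and low levels. GJB6, a connexin, had 0.246, 0.515, 0.772, 0.538 and 1.21 CPM with pomalidomide, against 2.93, 3.58, 5.79, 8.02 and 6.78 CPM with DMSO (-3.03 ± 0.27, adjusted p = 2.88e-16). OSR2, a zinc finger transcription factor, had 2.09, 4.25, 3.24, 2.96 and 2.96 CPM with pomalidomide, against 11.97, 17.8, 16.7, 22.7 and 23.7 CPM with DMSO (-2.57 ± 0.13, adjusted p = 2.60e-29). ZNF385B, a zinc finger protein, had 2.95, 2.83, 3.09, 2.82 and 2.96 CPM with pomalidomide, against 16.2, 12.2, 13.7, 11.6 and 13.1 CPM with DMSO (-2.18 ± 0.15, adjusted p = 1.25e-22). In all 3 genes every pomalidomide library lay below every DMSO library. LRRN3, a leucine-rich repeat membrane protein, had 1.35, 2.44, 3.40, 1.88 and 1.75 CPM with pomalidomide, against 8.92, 7.41, 12.9, 13.8 and 13.4 CPM with DMSO (-2.38 ± 0.17, adjusted p = 1.79e-20). It lies within IMMP2L. SSPN, sarcospan, had 3.81, 3.86, 4.17, 4.30 and 4.31 CPM with pomalidomide, against 20.8, 19.03, 24.8, 19.9 and 24.8 CPM with DMSO (-2.41 ± 0.14, adjusted p = 1.96e-26) and overlaps BHLHE41. ABLIM1, an actin-binding protein, was at -2.90 ± 0.24, KCNH2, a potassium channel, at -2.64 ± 0.34, SNPH, which docks mitochondria on microtubules, at -2.55 ± 0.36, CEMIP, a hyaluronan-binding protein that overlaps MESD, at -2.42 ± 0.36, and WNT7B, a WNT ligand, at -2.33 ± 0.34. IRF8, STOX2 (-2.05 ± 0.27), CDC42BPB (-2.11 ± 0.26), TGM2, transglutaminase 2 (-2.08 ± 0.25), and the read-through GUCA1ANB-GUCA1A (-2.11 ± 0.27) completed the set. CDC42BPB and TGM2 overlap other tested genes. TGM2 alone overlapped between the groups, and the way these genes were chosen favours separation here too.

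A list of 15 genes taken from earlier results of these data as readouts of IKZF1 and IKZF3 loss is not independent evidence of its direction. Of the 15, 9 were higher and 5 lower (93.3% called, beside 19.2% of all genes). With bexobrutideg, known to spare IKZF1 and IKZF3, 9 were higher and 2 lower against the same DMSO libraries, beside 1582 of all 14962 genes called. The list median was 0.39 (-0.64 to 1.53) with bexobrutideg, against 1.02 (-2.38 to 3.18) with pomalidomide and 1.29 (-1.54 to 2.42) with zelebrudomide. Members of this list were thus also called with bexobrutideg, and the part of IKZF1 and IKZF3 loss in the calls was not tested. RASSF4, a RAS association domain protein (ENSG00000107551, chromosome 10, 44959407 to 44995891), had 114, 115, 110.3, 103 and 99.3 CPM with pomalidomide, against 12.1, 15.2, 18.1, 12.8 and 15.8 CPM with DMSO, and its change of 2.87 ± 0.11, adjusted p = 1.16e-36 had the smallest p of the genes named; it overlaps DEPP1 and TMEM72-AS1. IGLC7, an immunoglobulin lambda constant segment with near-identical copies, had 129.6, 171, 195, 210.4 and 212 CPM with pomalidomide, against 11.7, 19.8, 21.8, 24.2 and 24.2 CPM with DMSO (3.18 ± 0.15, adjusted p = 5.03e-29). LDB3, a PDZ and LIM domain protein, had 30.6, 18.1, 16.8, 18.6 and 24.2 CPM with pomalidomide, against 3.06, 2.72, 3.78, 2.78 and 4.28 CPM with DMSO (2.70 ± 0.15, adjusted p = 9.94e-27). DAPK2, a death-associated kinase (1.32 ± 0.10, adjusted p = 1.86e-20), was higher, and LBH (-1.13 ± 0.11, adjusted p = 3.83e-15) and CRYM, a thyroid hormone-binding protein (-1.31 ± 0.14, adjusted p = 9.60e-13), were lower. VPREB3 was not called (0.01 ± 0.23, adjusted p = 0.985).

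Survival genes moved in both directions while proliferation genes mostly did not pass the test. Of 14 tested BCL2 family genes, 5 were higher and 4 lower (64.3% called, beside 19.2% of all genes; 1 and 2 without the clone term). HRK, a pro-apoptotic BH3-only gene, had 7.01, 5.79, 5.56, 12.6 and 7.27 CPM with pomalidomide, against 30.3, 23.1, 22.2, 36.3 and 33.6 CPM with DMSO (-1.93 ± 0.14, adjusted p = 1.39e-20). BID, another BH3 protein, had 71.1, 92.5, 99.3, 74.8 and 87 CPM with pomalidomide, against 48.7, 62.2, 59.5, 43.5 and 52.9 CPM with DMSO (0.67 ± 0.08, adjusted p = 1.67e-10). These 2 pro-apoptotic genes thus went opposite ways without overlap between the groups. BCL2 had 58.9, 41.04, 47.7, 52.5 and 43.1 CPM with pomalidomide, against 63.6, 50.9, 52.3, 61.6 and 52.8 CPM with DMSO. It was not called (-0.21 ± 0.08; adjusted p = 0.0632), although it was when only the groups compared were fitted (adjusted p = 0.00774), and MCL1 was not called (-0.09 ± 0.06; adjusted p = 0.365). Among cyclins and CDK inhibitors, beside CCND2, CDKN1A (p21) had 100.2, 90.7, 92.4, 98.5 and 90.9 CPM with pomalidomide, against 58.5, 60.4, 51.8, 67.7 and 58.7 CPM with DMSO (0.67 ± 0.09, adjusted p = 7.48e-10) and CDKN2D (p19) was lower at -0.77 ± 0.11, adjusted p = 6.64e-09. Of 26 proliferation genes, TK1, thymidine kinase, was higher and E2F1 and CDC25C were lower (11.5% called); none of the 3 was called without the clone term, and with only the groups compared 5 were higher and 2 lower. MKI67, the Ki-67 antigen, was at -0.13 ± 0.11 (adjusted p = 0.5). In edgeR's fit with clone as a block over all 24 h libraries, no transcript of 13 encoded in the mitochondrion was called, and 1 had an unadjusted p under 0.05. MT-ND5 was nearest (adjusted p = 0.0597). In other fits 1 was called: by DESeq2, and by edgeR with RLE size factors, with no expression filter, with only the groups compared and without clone 3.

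**Figure D4:**
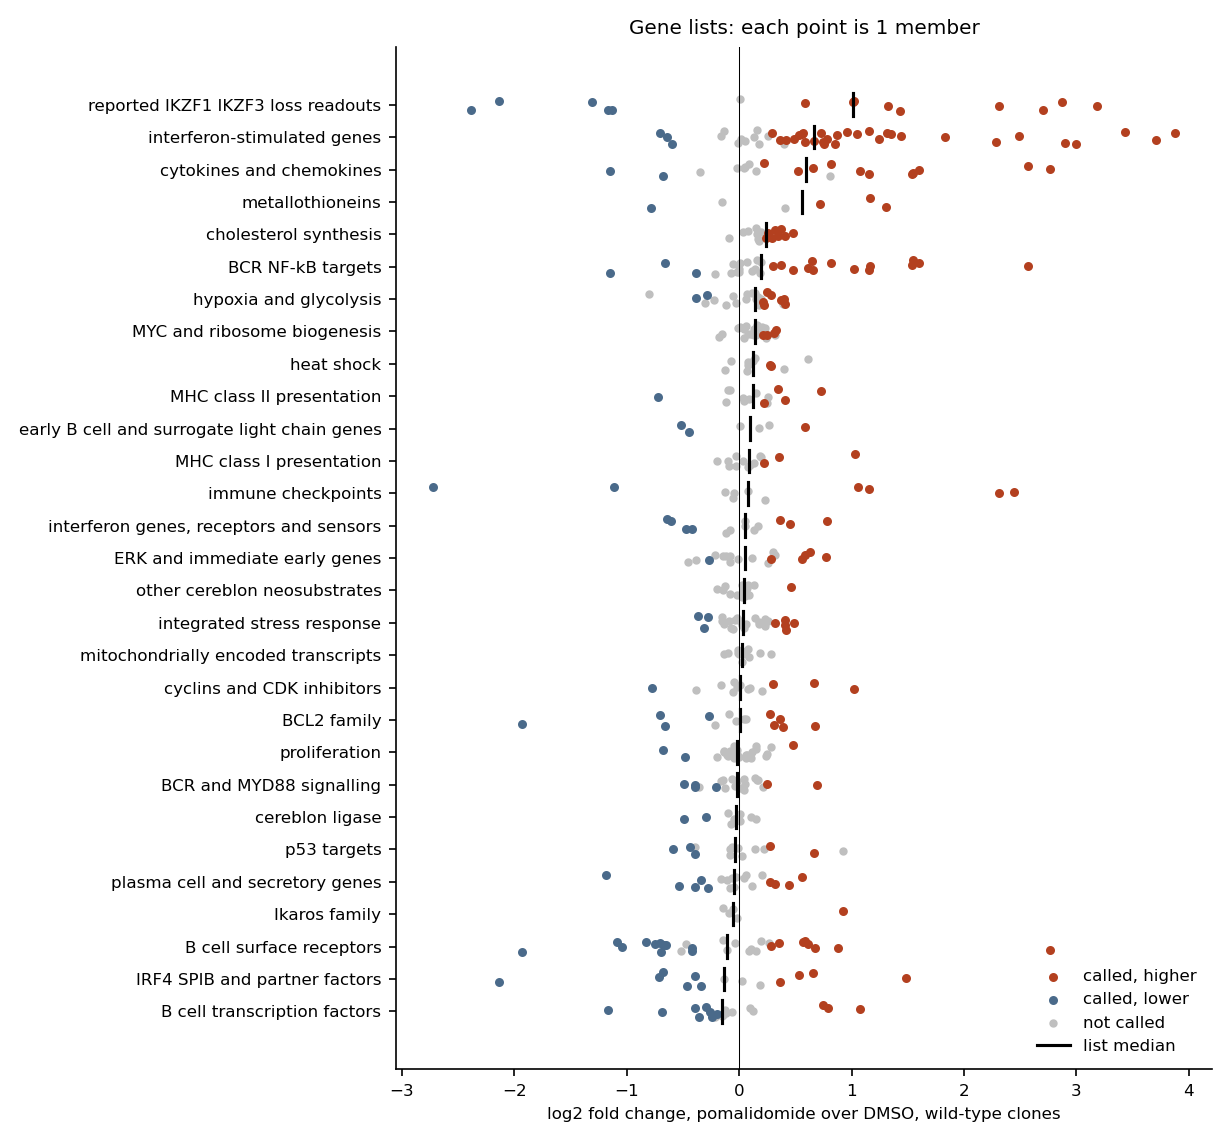
Each row is a gene list, ordered by its median (black bar), and each point a tested member placed by its log2 fold change, pomalidomide over DMSO, in wild-type clones; colours mark called members. Readouts of IKZF1 and IKZF3 loss, ISGs and cytokines have the highest medians (1.02, 0.67 and 0.59), and B cell transcription factors the lowest (-0.15). The readout list was taken from earlier results of these data, so its place is not independent evidence.

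Pomalidomide and DMSO libraries of 6 A428D clones share no library with the wild-type comparison, and 2493 genes (16.7%) were called there. Of the genes called in wild-type clones, 1776 were called in both, 61.7% of the wild-type and 71.2% of the A428D calls, and all 1776 had the same sign. Over the 529 genes that changed at least 2-fold in wild-type clones, the median ratio of the A428D to the wild-type log2 fold change was 0.814; genes chosen on their wild-type value favour the wild-type fold. IKZF1 changed by 0.90 ± 0.05 in A428D clones, RASSF4 by 2.54 ± 0.11, IRF8 by -1.82 ± 0.10 and IFIT3 by 2.79 ± 0.21. IRF4 stood at -0.21 ± 0.08 in A428D clones and -0.34 ± 0.09 in wild-type clones, and the difference was not called.

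The test of the difference in response itself, wild-type minus A428D, called 7 genes (0.0468%), 4 with a positive and 3 with a negative difference, of which 1 has no symbol; at an unadjusted p under 0.05 it was 771. LDLRAD4, an inhibitor of TGF-beta signalling, was lower with pomalidomide in both genotypes and more so in wild-type clones, at -1.28 ± 0.08 against -0.64 ± 0.06 in A428D clones (difference -0.64 ± 0.10, adjusted p = 0.000184). CCL4 was higher in both and more so in wild-type clones (2.57 ± 0.16 against 1.48 ± 0.15, difference 1.09 ± 0.24, adjusted p = 0.0376). TNFRSF11A, the receptor RANK, was called higher in wild-type clones and not called in A428D clones (1.28 ± 0.28 against -0.21 ± 0.16, difference 1.49 ± 0.33, adjusted p = 0.0376). GADD45B, a stress and NF-kB response gene, followed it (0.43 ± 0.06 against 0.03 ± 0.06, difference 0.40 ± 0.09). EIF2AK2, the antiviral kinase PKR, was higher in both but less so in wild-type clones (0.49 ± 0.08 against 0.99 ± 0.07, difference -0.50 ± 0.11), and MYB, a progenitor transcription factor, was not called in wild-type clones and was higher in A428D clones (-0.22 ± 0.13 against 0.63 ± 0.12, difference -0.86 ± 0.18). These calls depend on the clones: the count was 1 without wild-type clone 1 or 2, 3 without clone 4 and 2 without clone 5, 14 and 11 without A428D clone 1 or 2, 3 without clone 3, 1 without clone 4 or 5 and 2 without clone 6, and 0 without the clone term. Of the 6 genes with a symbol, LDLRAD4 alone was called in every setting that left out a clone. Mean CPM with DMSO, wild-type then A428D clones, was 1.39 and 8.58 for TNFRSF11A, 95.1 and 127 for GADD45B and 33.85 and 23.0 for EIF2AK2. It was 72.1 and 111 for LDLRAD4, 9.82 and 7.46 for MYB and 3.36 and 4.74 for CCL4. With pomalidomide, in that order, it was 3.40 and 7.30, 128 and 128, 47.5 and 46.1, 29.7 and 70.7, 8.29 and 11.5, and 19.7 and 13.1. The part of the DMSO level in these differences was not tested.

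**Figure D5:**
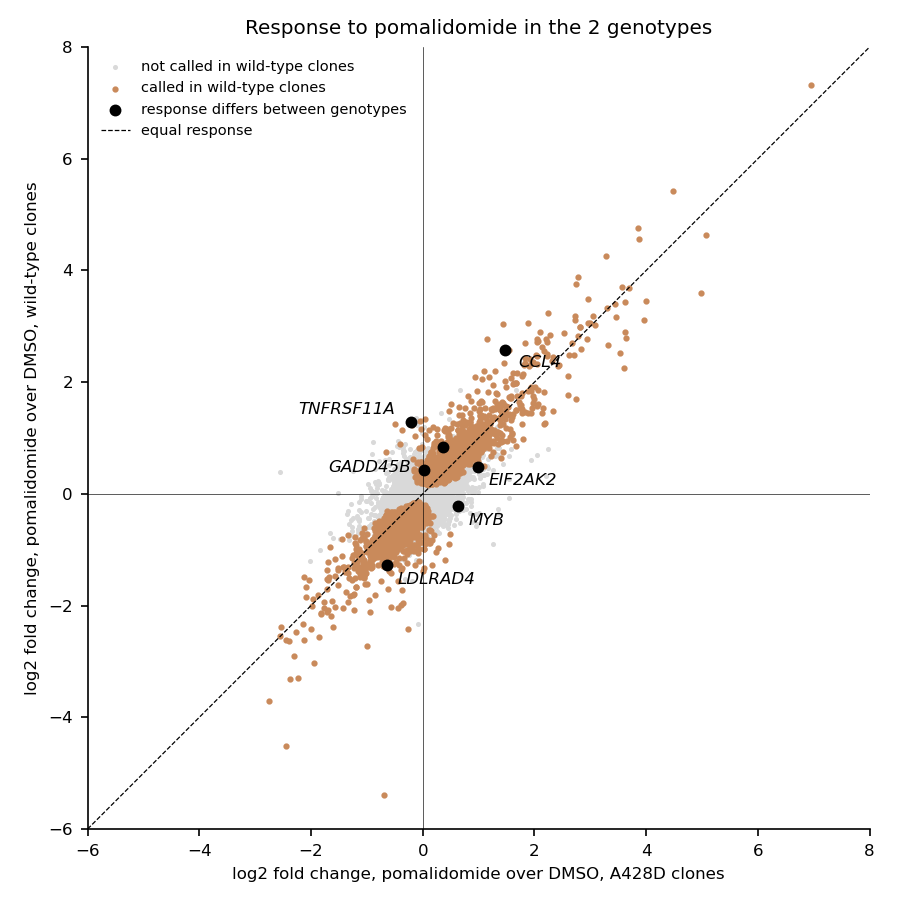
Each point is a gene tested, placed by its log2 fold change, pomalidomide over DMSO, in A428D clones (x) and wild-type clones (y); the dashed line marks an equal response. Over the genes changed at least 2-fold in wild-type clones the median ratio of A428D to wild-type response is 0.814, and the 7 black points are those whose response differed, with CCL4, TNFRSF11A and GADD45B above it and LDLRAD4, EIF2AK2 and MYB below it.

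Zelebrudomide is known to degrade IKZF1 and IKZF3 through cereblon and BTK as well, so the direct contrast of the 2 compounds in the same 5 wild-type clones sets pomalidomide against a compound that adds BTK degradation; doses were not given, so whether they matched is unknown. It called 2749 genes (18.4%), 1578 higher with pomalidomide (10.5%) and 1171 lower (7.83%); without the clone term it called 1112, all among the 2749. Targets of NF-kB differed in 1 direction: 24 of 30 were higher with pomalidomide (80.0%, beside 10.5% of all genes) and none lower, with a median difference of 0.90. The calls given next, of single genes between the compounds, all held without the clone term. CCL4 was 19.7 ± 5.96 CPM with pomalidomide and 1.36 ± 1.14 CPM with zelebrudomide (SD, n = 5 each), a log2 difference of 3.84 ± 0.21, adjusted p = 5.34e-27. IL10 was 21.5 ± 5.66 CPM with pomalidomide and 2.24 ± 0.822 CPM with zelebrudomide (3.26 ± 0.23, adjusted p = 4.56e-20), and IRF4 was 351 ± 22.2 CPM with pomalidomide and 195 ± 10.7 CPM with zelebrudomide (0.85 ± 0.09, adjusted p = 6.74e-12). MYC was 131 ± 18.4 CPM with pomalidomide and 67.1 ± 11.6 CPM with zelebrudomide (0.98 ± 0.13, adjusted p = 1.31e-08).

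The integrated stress response, the ATF4 programme of amino acid supply, also separated the compounds. Of its 26 tested genes (28 listed), 25 were higher with pomalidomide than with zelebrudomide (96.2%, beside 10.5% of all genes), with a median of 0.85. Against DMSO 5 were higher and 3 lower, beside 9.76% of all genes higher and 9.48% lower. These DMSO counts were 2 and 0 without the clone term, 2 and 3 without clone 1, 4 and 1 without clone 4 and 2 and 2 without clone 5. CHAC1, which degrades glutathione, was 4.22 ± 0.755 CPM with pomalidomide, 1.04 ± 0.393 CPM with zelebrudomide and 3.72 ± 0.528 CPM with DMSO; the direct difference was 1.96 ± 0.27, adjusted p = 1.57e-08. Of 25 genes of MYC and ribosome biogenesis, 18 were higher with pomalidomide than with zelebrudomide (72.0%, beside 10.5% of all genes).

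Of the 15 IKZF1 and IKZF3 loss readouts, 4 were higher and 7 lower with pomalidomide than with zelebrudomide, with a median difference of -0.09. RASSF4 was 108 ± 7 CPM with pomalidomide and 31.8 ± 3.62 CPM with zelebrudomide (1.77 ± 0.10, adjusted p = 1.42e-24), and IRF8 was 11.8 ± 0.635 CPM with pomalidomide and 31.95 ± 4.30 CPM with zelebrudomide (-1.43 ± 0.12, adjusted p = 1.16e-16). LDB3 (0.29 ± 0.12; adjusted p = 0.0779) and VSIR (-0.09 ± 0.13; adjusted p = 0.725) did not differ by the test, which does not show that they were equal. Of 43 ISGs, 18 were higher with pomalidomide and 4 lower, beside 10.5% of all genes higher and 7.83% lower in this contrast. Of the genes lower with pomalidomide, ABLIM1 was 1.08 ± 0.915 CPM with pomalidomide and 7.72 ± 4.83 CPM with zelebrudomide (-2.84 ± 0.25, adjusted p = 2.61e-16) and ZNF385B 2.93 ± 0.109 CPM with pomalidomide and 13.9 ± 2.66 CPM with zelebrudomide (-2.23 ± 0.15, adjusted p = 4.89e-22). Set against DMSO, with the DMSO libraries shared by all 3 comparisons, IKZF1 was at 0.92 ± 0.06 with pomalidomide, 0.59 ± 0.06 with zelebrudomide and -0.09 ± 0.06 with bexobrutideg, a BTK degrader known to spare IKZF1 and IKZF3, and IRF4 at -0.34 ± 0.09, -1.19 ± 0.09 and -1.02 ± 0.09.

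With venetoclax present in both arms, the response to pomalidomide was measured again in the same clones in libraries that the main comparison does not use. There 2572 genes (17.2%) were called; 1431 were called with and without venetoclax, 49.7% of the calls without it and 55.6% of those with it, and 1416 of them had the same sign. The test of the difference, without minus with venetoclax, called 279 genes (1.86%), 119 positive and 160 negative; the split was 146 and 130 with the RLE size factors. The count was 123 without clone 2, 135 without clone 4, 91 without clone 5 and 4 without the clone term. Of 30 NF-kB targets, 11 had a positive difference (36.7%, beside 0.795% of all genes) and none a negative one, and of 43 ISGs 12 had a negative difference (27.9%, beside 1.07%) and none a positive one.

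Of 20 cytokine and chemokine genes, 5 had a positive difference (25.0%, beside 0.795% of all genes), 15 were not called, and the list ran down to -1.45. IL10 changed by 1.54 ± 0.17 without venetoclax and stood at 0.13 ± 0.16 with it (difference 1.41 ± 0.23, adjusted p = 5.12e-05). CCL4 changed by 2.57 ± 0.16 without and 1.27 ± 0.19 with venetoclax (1.30 ± 0.26, adjusted p = 0.00122). IL6 changed by 1.60 ± 0.22 without and stood at -0.13 ± 0.20 with venetoclax (1.74 ± 0.30, adjusted p = 0.000116). Without the clone term none of these 3 differences was called (adjusted p = 0.301 for IL10, 0.784 for CCL4 and 0.211 for IL6). Of the ISGs, MX1, an antiviral GTPase, changed by 0.75 ± 0.14 without venetoclax and by 2.37 ± 0.15 with it (-1.63 ± 0.21, adjusted p = 4.03e-07), and its mean level was 42 ± 5.68 CPM with pomalidomide and 25.1 ± 4.76 CPM with DMSO, against 67.6 ± 11.99 CPM with pomalidomide and venetoclax and 13.04 ± 1.09 CPM with venetoclax alone. OAS2 (0.59 ± 0.11 and 1.74 ± 0.13; -1.15 ± 0.17, adjusted p = 6.10e-06) and OAS3 (1.83 ± 0.19 and 3.29 ± 0.23; -1.46 ± 0.33, adjusted p = 0.00641) followed it, OAS3 losing its call without clone 4, without clone 5 and without the clone term (adjusted p = 0.166, 0.0637 and 0.0507). MX1 and OAS2 were still called without the clone term (adjusted p = 0.00219 and 0.0136). IKZF1 (0.12 ± 0.08), RASSF4 (-0.18 ± 0.16) and IRF8 (-0.40 ± 0.17) gave no called difference between the 2 settings.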

How the data were processed

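RNA 3' ends were sequenced from pelleted and lysed cells, per the labels' protocols. Per the submitters' processing notes, the tools were STAR 2.7.11, fastp 0.24.0, Subread 2.1.1 and featureCounts; SAMtools 1.22.1, edgeR, FastQC 0.12.1 and MultiQC 1.32 are listed too, with hg38 and GRCh38 as builds and no role for any of them. Neither strand setting, nor annotation release, nor handling of duplicate reads is stated there. Estimated counts, which the authors deposited without normalisation, cover 78986 identifiers and 100 libraries; 8.75% of values were not whole, and all were rounded, which changed the total by -0.0068%. The 92 spike-in entries were left out, and 36134 identifiers have no symbol, so none of these is named. GENCODE release 29 gave the positions.

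Groups, clone numbers and treatments come from the labels. All 88 libraries of 24 h (16 groups, 11 clones) were fitted together with edgeR 4.0.16 in R 4.3.3 (TMM scaling, its default filter with a minimum count of 10 and total of 15, robust quasi-likelihood, Benjamini-Hochberg over 14962 genes), with group and clone as terms. The comparison is paired by clone: deviations from the group mean over 500 genes correlated at 0.278 to 0.549 between the pomalidomide and DMSO libraries of a clone, and at most 0.054 between clones. The script was tested on simulated counts. No libraries of a group agreed within sampling noise (lowest chi-square per degree of freedom 2.20). Precision covers counting and these clones only. Alternatives were no clone term, only the groups compared, RLE size factors, DESeq2 1.42.0, no expression filter and each clone left out. Named genes are 8 core genes, the 15 largest rises and falls with 5 of 5 clones alike and at least 1 CPM, up to 4 called members of smallest p per list, and up to 8 genes each way per further contrast; other list members are named beside their list's counts, chosen with their values known. A few list members are counted but not reported by name. The comparison, the genes and the 29 lists were chosen with earlier results of these data known.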

Additional observations from a re-analysis of the deposited data

Results flagged for a closer look

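Among 82 groups of 5 libraries examined, 4 held a library far from the other 4, a rate that chance alone gives in about 1 in 20 groups. With pomalidomide, ABLIM1 was 2.69 CPM in clone 4 against 0.515 to 0.861 in the other clones, and mitochondrial transcripts took 8.98% of counts in clone 2 against 8.13% to 8.28% in the others. With DMSO, NES was 0.473 CPM in clone 3 against 0 to 0.124 in the others, and CEBPD was 0 in clone 5 against 0.214 to 0.255 in the others; both are levels of a few counts.

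Responses that differed between wild-type and A428D clones by the interaction test had log2 differences, wild-type minus A428D, of 1.49 for TNFRSF11A, 1.09 for CCL4, 0.40 for GADD45B, -0.50 for EIF2AK2, -0.64 for LDLRAD4 and -0.86 for MYB.

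Responses that differed with venetoclax, as log2 differences without minus with it, were positive for IL6 (1.74), SLC16A9 (1.66), CCL3 (1.55), MPP7 (1.54), IL10 (1.41), CHAC1 (1.37), CCL4 (1.30) and HSD17B8 (1.28). They were negative for BCAS1 (-1.83), MX1 (-1.63), NEIL1 (-1.63), OAS3 (-1.46), MYBL1 (-1.30), HELZ2 (-1.29), OAS2 (-1.15), OSR2 (-1.12) and SSPN (-0.96). Without the clone term 15 of these 17 calls were lost (adjusted p = 0.0507 to 0.865), and MX1 and OAS2 were still called. HELZ2 lost its call whichever of the 5 clones was left out. BCAS1, NEIL1 and MYBL1 lost theirs without clone 1, 2, 4 or 5, SLC16A9 without clone 2, 4 or 5, OAS3 without clone 4 or 5, CHAC1 without clone 2 or 5, CCL3 without clone 2 and SSPN without clone 5. The other 8 kept their calls whichever clone was left out. Among the 17, CHAC1 and HELZ2 were not called against DMSO in the absence of venetoclax (0.17 ± 0.20 and 0.08 ± 0.21), and OSR2 and SSPN fell with pomalidomide under both conditions, by less with venetoclax (-1.45 ± 0.14 and -1.45 ± 0.13).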

How the results depend on the processing

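The call count for pomalidomide against DMSO was 2879; that for the wild-type minus A428D difference was 7, for pomalidomide against zelebrudomide 2749 and for the venetoclax difference 279. RLE size factors, DESeq2 and no expression filter left each within 1.5 times. Without the replicate block of clones the counts were 1495, 0, 1112 and 4, each called gene being among those called with it; with only the groups compared they were 3667, 14, 3949 and 1026. Leaving out 1 wild-type clone gave 2283 to 2837, 1 to 8, 2005 to 2942 and 91 to 322, and leaving out 1 A428D clone gave 1 to 14 for the genotype difference. The cause was not tested. Of 152 named genes, 109 stayed on the same side of the threshold in pomalidomide against DMSO under all 10 settings in which they could be tested, 43 did not (37 lost without the block), and none changed sign while called; 249 of 290 list counts were within 1.5 times. Levels near 1 CPM rest on under 10 counts a library, which limits the genes near silence.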

Other observations

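Metabolic lists gave small changes; the counts below stand beside 9.76% of all genes higher and 9.48% lower. Of 17 tested cholesterol synthesis genes, 9 were higher with pomalidomide and none lower (median 0.24; 2 without the clone term and 14 with only the groups compared), among them FDPS, farnesyl diphosphate synthase, at 230.1, 225, 215, 230.3 and 215 CPM with pomalidomide, against 178, 175, 161, 170.3 and 176 CPM with DMSO (0.37 ± 0.08, adjusted p = 0.000174). Of 24 hypoxia and glycolysis genes, 7 were higher and 2 lower (0 and 0 without the clone term, 2 and 2 without clone 5, 12 and 3 with only the groups compared): VEGFA was at 0.40 ± 0.10, and the glucose transporter SLC2A1 at -0.39 ± 0.10. Of 25 genes of MYC and ribosome biogenesis, 4 were higher (1 without the clone term, without clone 5 or with no expression filter, 2 without clone 4, 12 and 1 lower with only the groups compared), led by NOP56, a nucleolar protein (0.31 ± 0.08, adjusted p = 0.00229).

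Of 6 tested metallothionein list genes (8 listed), whose proteins mostly bind zinc and copper, 3 were higher, 1 lower and 2 not called. MT1X had 109, 103, 91.4, 114 and 134 CPM with pomalidomide, against 42.5, 50.2, 46.4, 47.3 and 58.97 CPM with DMSO (1.16 ± 0.10, adjusted p = 2.32e-17). MT2A was higher by 0.72 ± 0.10, adjusted p = 3.40e-09. MT1G was higher as well (1.30 ± 0.44, adjusted p = 0.0454 without the clone term), a call lost without clone 5 (adjusted p = 0.128). MT1F was lower at -0.78 ± 0.11, adjusted p = 4.34e-09, a call lost without the clone term (adjusted p = 0.0842). These genes are close paralogues, and reads could be split between them. Of 14 class II presentation genes 4 were higher and 1 lower (1 and 0 without the clone term, 3 and 0 without clone 1), with HLA-DPA1, which overlaps HLA-DPB1, at 0.41 ± 0.07, adjusted p = 5.77e-07 and the transactivator CIITA not called (-0.12 ± 0.09; adjusted p = 0.439). Among 14 p53 targets 2 were higher and 3 lower (1 and 1 without the clone term), and MDM2 was not called (0.22 ± 0.10; adjusted p = 0.131). Of 11 heat shock genes 2 were higher, HSPA8 (0.29 ± 0.10, adjusted p = 0.0334) and DNAJA1 (0.28 ± 0.08, adjusted p = 0.00837); neither was called without the clone term, 1 was called without clone 2, 3, 4 or 5, and 4 were with only the groups compared. Of 6 tested early B cell genes (14 listed) ADA, adenosine deaminase, was higher (0.59 ± 0.10, adjusted p = 5.87e-06; it overlaps PKIG), and the transcription factor SOX4 (-0.52 ± 0.06, adjusted p = 1.30e-10) and CD9 (-0.45 ± 0.10; adjusted p = 0.581 without the clone term) were lower. Of the 8 cell type markers tested outside the B cell list, 6 were called, 4 higher and 2 lower. CD4 was 3.95 ± 0.807 CPM with pomalidomide and 0.428 ± 0.370 CPM with DMSO and CD5 was 1.49 ± 0.378 CPM with pomalidomide and 3.48 ± 1.69 CPM with DMSO, both from the T and NK cell list. COL1A1 was 16.1 ± 8.19 CPM with pomalidomide and 7.29 ± 2.34 CPM with DMSO, PECAM1 was 3.90 ± 0.901 CPM with pomalidomide and 1.93 ± 0.690 CPM with DMSO and DCN was 1.57 ± 0.444 CPM with pomalidomide and 2.80 ± 1.62 CPM with DMSO (SD, n = 5 each).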
